A study of Mus musculus with 93 samples.

Results

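Livers of PWK/PhJ and CAST/EiJ mice fed a western diet (WD) were compared gene by gene. All mice on WD of these strains were taken, which gave 15 of the 93 mice of the series: 7 PWK/PhJ and 8 CAST/EiJ. Of the 53465 genes in the count table, 19110 had enough reads to be tested. RNA-seq counts of whole liver were available for 7 inbred strains, each on WD or on a control diet (CD). All mice were males, were moved to thermoneutrality (30°C) at 6 wk of age, received WD (40% of energy from fat) or CD (10%) from 7 wk for 17 wk, and were killed at 24 wk. Besides the WD mice, 6 PWK/PhJ and 7 CAST/EiJ mice on CD and 8 C57BL/6J mice on WD were used as references. None of the groups carried an engineered allele or a drug, and each strain is inbred, so the mice of a group vary around 1 genotype.

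PWK/PhJ is a wild-derived strain of the subspecies Mus musculus musculus and CAST/EiJ one of M. m. castaneus, whereas the laboratory strain C57BL/6J is largely of M. m. domesticus origin. A fatty liver can progress from lipid storage to inflammation and then to fibrosis, in which activated stellate cells lay down collagen and macrophages gather around damaged, lipid-laden hepatocytes. Hepatocytes meanwhile adjust cholesterol synthesis through SREBP2, bile acid synthesis through CYP7A1, and fat storage through SREBP1c and PPAR gamma. The comparison asks how the liver transcriptomes of both strains differed after the same diet and how far they already differed on CD.

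Hepatocyte genes led the libraries in both strains. Alb, the main plasma protein of the liver, was at 52373 to 72082 CPM (read counts scaled to library size by TMM factors) in PWK/PhJ and 45498 to 67400 in CAST/EiJ, with overlapping mice and a log2 difference of 0.13 (adjusted p = 0.215, limma-voom). Of 8 adipose and pancreas markers tested, limma-voom called 0, with 0 at an unadjusted p below 0.05, and edgeR and DESeq2 called 1 each. Between 40797718 and 46606121 reads lay on genes in each of the 15 mice. The median correlation of a mouse with the others of its group was 0.985 to 0.993 in PWK/PhJ on WD and 0.984 to 0.989 in CAST/EiJ on WD, but 0.957 to 0.973 in CAST/EiJ on CD. In that CD group the first principal component held 63.8% of the variance and separated replicates 1, 2, and 4 from replicates 5, 6, and 7. Pdk4, a kinase that spares glucose and is induced by fasting, was at 3.60 to 8.92 CPM in the former mice, 357 in replicate 3, and 505 to 882 in the latter. Results that compare the diets use all CD mice. Counts over all genes and several lists are therefore also given without either of these sets. Named genes that no longer passed without 1 of the sets are listed near the end. CAST/EiJ WD replicate 3 also stood apart from the other 7 mice in matrix, muscle, and mesothelial genes, and matrix results are given with and without it.

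Reads were mapped to the C57BL/6J genome, and the strains lost reads to different extents. Unmapped reads made up 7.88 ± 1.18% (SD, n = 7) in PWK/PhJ on WD and 13.3 ± 1.01% (n = 8) in CAST/EiJ on WD, against 2.82 ± 0.621% (n = 8) in C57BL/6J on WD. The 2 wild-derived groups did not overlap (5.48 to 8.73% and 11.7 to 14.8%). On CD the unmapped share was 3.504 ± 0.708% (n = 6) in PWK/PhJ and 10.8 ± 1.66% (n = 7) in CAST/EiJ, so it was higher on WD than on CD in the mean of both strains, and that difference was not tested. Multimapping reads were also fewer in PWK/PhJ (10.1 ± 0.527% against 11.5 ± 0.206%), and reads in ambiguous positions were more frequent (5.08 ± 0.375% against 3.81 ± 0.0727%). For each of these 3 shares the exact two-sided permutation p was 0.000311, the smallest that 7 against 8 mice can give, and 0.000518 after adjustment over 5 shares. Reads outside genes (p = 0.154 by the exact permutation test) and the mitochondrial share of gene reads (7.05 ± 0.828% against 7.56 ± 0.411%, exact adjusted p = 0.154) did not pass. The part of mapping in the fold change of any single gene was not tested, and a fold change between the strains can hold both a difference in RNA and a difference in how well reads map.

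**Figure D1:**
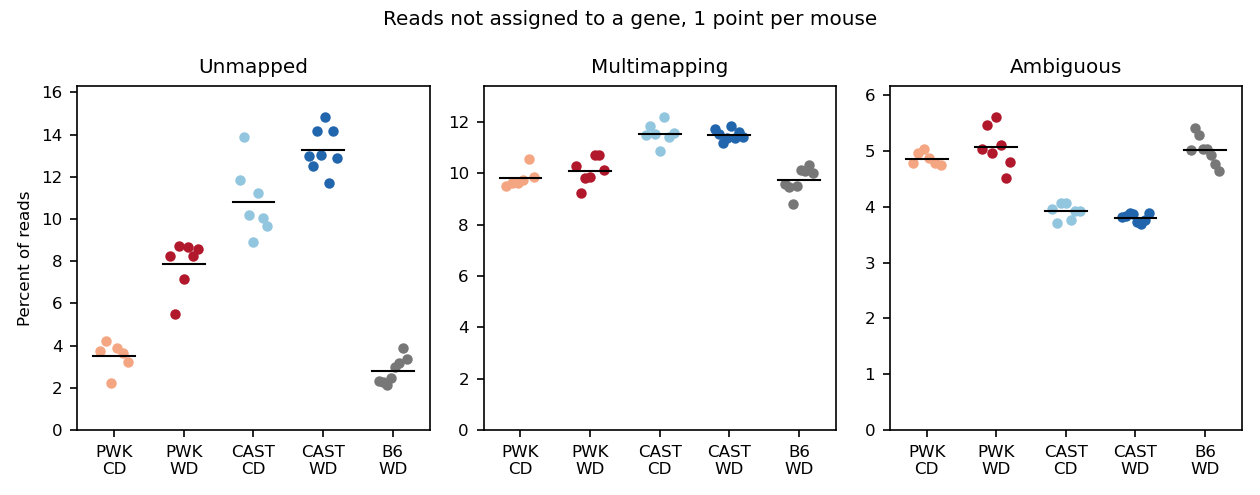
Unmapped, multimapping, and ambiguous reads as percentages of all reads (y axes, from 0), by strain and diet, with 1 point per mouse and lines at group means. The CAST/EiJ group means were the highest for unmapped reads on both diets, and all 8 on WD lay above all 7 PWK/PhJ mice on WD.

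At an adjusted p below 0.05, 11874 of 19110 genes (62.1%) were differentially expressed (DEGs) between the strains on WD. Of these, 6074 (31.8% of the genes tested) were higher in PWK/PhJ and 5800 (30.4%) higher in CAST/EiJ. The mice of both strains did not overlap for 6546 genes (34.3%). The median log2 fold change over all genes was 0.00, with quartiles at -0.38 and 0.54, and 1363 DEGs were at least 2 log2 units higher in PWK/PhJ and 897 at least 2 log2 units higher in CAST/EiJ. Against so large a background, a count of members of a gene group means little unless it leans to 1 strain. On CD, 11161 genes (58.4%) were called, 5650 (29.6%) higher in PWK/PhJ and 5511 (28.8%) in CAST/EiJ, and 8156 of the WD calls (68.7%) had the same call on CD, 278 had the opposite call, and 3440 were not called on CD. The strain difference itself differed between the diets for 3664 genes (19.2%), with 1708 (8.94%) shifted toward PWK/PhJ on WD and 1956 (10.2%) shifted toward CAST/EiJ. Without CAST/EiJ CD replicates 5, 6, and 7 the count was 1957 (10.2%), 5.01% of genes toward PWK/PhJ and 5.23% toward CAST/EiJ. Without replicates 1, 2, and 4 it was 5491 (28.7%), 13.5% and 15.2%. Without CAST/EiJ WD replicate 3, 31.3% and 30.2% of genes were higher in PWK/PhJ and CAST/EiJ on WD. Both strains on WD were present together only in cohort 1, with 3 mice each, where 4750 genes (24.9%) were higher in PWK/PhJ and 4352 (22.8%) in CAST/EiJ.

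**Figure D2:**
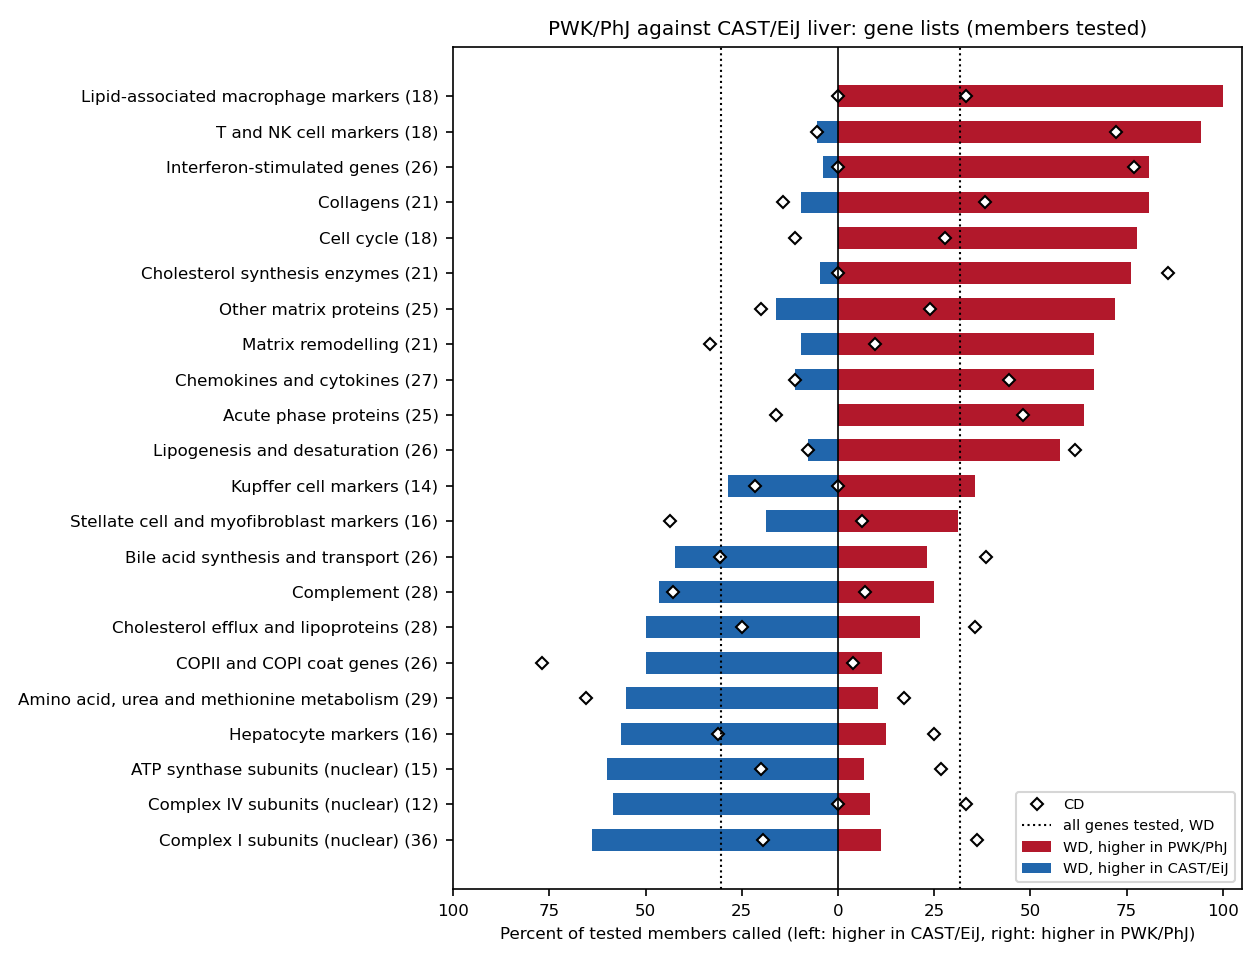
Percent of the tested members of each gene list (number tested in brackets) that were called higher in PWK/PhJ (red, right) or in CAST/EiJ (blue, left) on WD. Diamonds give the same percentages on CD and dotted lines the percentages over all genes on WD (31.8% and 30.4%). Lipid-associated macrophage, matrix, interferon, and cholesterol synthesis lists lean to PWK/PhJ, and the nuclear respiratory chain lists lean to CAST/EiJ on WD.

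Among abundant coding genes whose mice did not overlap, the largest differences were in secreted and detoxifying proteins of the hepatocyte. Lcn2, the iron-sequestering acute phase protein lipocalin 2, ranged from 86.5 to 542 CPM (median 256) in PWK/PhJ and from 1.08 to 2.63 (median 1.71) in CAST/EiJ. Its log2 fold change was 7.15 (SE 0.82, adjusted p = 1.89e-12), and C57BL/6J mice on WD were at 48.6 to 128, above all CAST/EiJ mice and overlapping the lower PWK/PhJ mice. On CD the log2 difference was 2.86, and the difference between the diets was 4.28 (adjusted p = 0.0129; 0.0497 without CAST/EiJ CD replicates 5, 6, and 7 and 0.0553 without replicates 1, 2, and 4). Saa1, serum amyloid A1, was also far higher in PWK/PhJ, at 205 to 827 CPM (median 490) against 4.60 to 42.8 (median 11.0), with a log2 fold change of 5.34 (SE 0.78, adjusted p = 6.41e-09).

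The other genes named at this extreme differed in the same direction on both diets, in part by different amounts. Hamp2, a paralog of the iron hormone hepcidin, was at 63.1 to 239 CPM in PWK/PhJ and 0.753 to 3.10 in CAST/EiJ, with log2 fold changes of 6.02 on WD and 6.46 on CD. Gsn, the actin-severing protein gelsolin, had a log2 fold change of 5.42 on WD (145 to 354 CPM against 3.84 to 9.24) and of 6.77 on CD. The difference between diets was -1.35 (adjusted p = 0.00952, and 0.0599 without CAST/EiJ CD replicates 1, 2, and 4). Serpina7, which encodes the thyroxine-binding globulin, was higher by 5.97 on WD and 4.00 on CD. The difference between diets was 1.97 (adjusted p = 0.00439, and 0.112 without CAST/EiJ CD replicates 1, 2, and 4). The sulfotransferase gene Sult5a1 was higher by 5.63 on WD and 6.53 on CD. Genes at this extreme were chosen among those without overlap on WD, so the separation of their mice is not a further result. In the opposite direction, Gstp3, a glutathione transferase, was at 1.20 to 2.15 CPM in PWK/PhJ and 324 to 361 in CAST/EiJ (log2 fold change -7.73). On CD its log2 difference was -6.17, and the difference between diets was -1.56 (adjusted p = 0.000392). Slc22a7, the organic anion transporter OAT2, was at 5.67 to 8.77 against 191 to 250 CPM (-4.82), and the related Slc22a28 followed at -4.72. Selenbp2, a selenium-binding protein, was at 25.0 to 122 against 1486 to 2493 CPM (-5.53).

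Gene families of near-identical members split in both directions. Of the major urinary proteins, carriers of pheromones made in male liver, Mup20 was higher in PWK/PhJ (log2 fold change 9.84), whereas Mup12 (-11.56), Mup3 (-6.66), and Mup6 (-5.88) were higher in CAST/EiJ. Of the alpha-1 antitrypsin genes, Serpina1a was higher in PWK/PhJ (5.34), and Serpina1c (-7.70) and Serpina1e (-4.46) were higher in CAST/EiJ. Members of such families can exchange reads, so a single member's value is uncertain, as are those of the Saa, Orm, Hamp, Gst, Cyp, and H2 families named here. Timp1 lies within Syn1, Lrtm1 within Cacna2d3, and Irf7 beside Phrf1 on the opposite strand, and Ndufs1, Cox4i1, Mvd, Atp5o, and Pparg overlap other genes too. Whether counting used the strand is not given in the sources used here, so reads of such partners cannot be told apart.

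Matrix genes were higher in PWK/PhJ livers on WD. Of 21 collagen genes tested, 17 were higher in PWK/PhJ and 2 in CAST/EiJ, with a median log2 fold change of 1.46. The mice of both strains did not overlap for 8 of the 21, not far from the 34.3% of all genes. On CD the counts were 8 and 3 with a median of 0.05, and the strain difference was shifted toward PWK/PhJ on WD for 10 collagens and toward CAST/EiJ for 1. Each of the CD alternatives gave 9 and 1. Among 25 other matrix proteins 18 were higher in PWK/PhJ and 4 in CAST/EiJ, and among 21 remodelling enzymes and inhibitors 14 and 2. Members higher in CAST/EiJ included Col4a3 (-1.91), Col27a1 (-1.71), and Postn (-1.19). In bulk liver, more cells of a type and more RNA per cell cannot be told apart, here and in the cell marker results that follow.

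Col1a1, the main chain of fibrillar collagen I, was at 18.5 to 117 CPM (median 70.0) in PWK/PhJ and 3.26 to 74.8 (median 4.99) in CAST/EiJ. The overlap came from a single CAST/EiJ mouse, replicate 3, since the other 7 lay at 3.26 to 6.05. The log2 fold change was 3.15 (SE 0.43, adjusted p = 9.25e-10), and 3.67 without that mouse. On CD both strains were low, at 3.00 to 4.59 and 2.67 to 7.78 CPM (log2 difference 0.05, adjusted p = 0.954), and the difference between diets was 3.10 (adjusted p = 0.00356). Col3a1 had the same form, with 56.1 to 218 CPM against 14.9 to 105 on WD, a log2 fold change of 2.65 (SE 0.31), and a difference between diets of 2.60 (adjusted p = 5.8e-05).

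Col1a2, the partner chain of Col1a1, was lower in PWK/PhJ on CD (-1.26) and higher on WD (1.75), which gave a difference between diets of 3.01 (adjusted p = 2.02e-05). Timp1, an inhibitor of matrix metalloproteinases, was at 1.99 to 11.5 CPM (median 6.75) against 0.0490 to 3.54 (median 0.268). CAST/EiJ replicate 3 was again the highest mouse of its strain, and the log2 fold change was 4.39 (SE 0.51, adjusted p = 4.38e-12) with it and 4.92 without it. The Timp1 difference between diets (3.25, adjusted p = 0.0137) did not pass without CAST/EiJ CD replicates 5, 6, and 7 (0.126) or without replicates 1, 2, and 4 (0.0747). Spp1, the cytokine osteopontin made by ductular cells and macrophages, was at 150 to 501 CPM against 27.6 to 52.8 with no overlap (3.05), and it was already higher in PWK/PhJ on CD (2.24).

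Postn, the matricellular protein periostin, took the other direction. It was at 7.49 to 21.3 CPM in PWK/PhJ and 26.3 to 41.5 in CAST/EiJ on WD (-1.19, adjusted p = 2.91e-09). On CD it was at 0.834 to 1.48 and 23.3 to 34.0 CPM (-4.79), so the gap was narrower on WD by 3.59 (adjusted p = 3.87e-11). Tnc, tenascin C, and Vcan, versican, which appear in remodelled matrix, had log2 fold changes of 5.31 and 3.89. Lox, the enzyme that crosslinks collagen, had 3.27, and Ltbp2, a matrix protein related to the latent TGF-beta binding proteins, 3.20.

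Markers of the stellate cell itself did not lean to PWK/PhJ on WD. Of 16 stellate and myofibroblast markers, 5 were higher in PWK/PhJ and 3 in CAST/EiJ (median log2 fold change 0.06), and without CAST/EiJ WD replicate 2 the counts were 3 and 4. On CD 1 was higher in PWK/PhJ and 7 in CAST/EiJ (median -0.30). The strain difference was shifted toward PWK/PhJ on WD for 5 and toward CAST/EiJ for 0, against 8.94% and 10.2% of all genes. These counts were 4 and 0 without CAST/EiJ CD replicates 5, 6, and 7. Without replicates 1, 2, and 4 they were 7 and 1. On WD Acta2, the contractile actin of myofibroblasts and of vessel walls, was at 6.07 to 12.2 CPM against 5.81 to 9.78, with a log2 difference of 0.12 (SE 0.21, adjusted p = 0.624). Among the markers called, Pdgfrb, the PDGF receptor of stellate cells, was higher in PWK/PhJ (1.14), and Myh11, a smooth muscle myosin, higher in CAST/EiJ (-1.17). In the TGF-beta list 10 of 25 were higher in PWK/PhJ and 2 in CAST/EiJ. Tgfb1 itself was at 13.6 to 21.8 against 5.37 to 10.2 CPM (1.31, adjusted p = 2.78e-14) and also differed on CD (0.95).

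CAST/EiJ WD replicate 3 was high in genes outside matrix as well. The muscle genes Mb and Tnnt3, chosen after their values were seen, were at 17.3 and 12.3 CPM in this mouse against at most 2.29 and 3.46 in the other 7. The mesothelial markers Wt1 and Msln were at 2.72 and 6.30 CPM against at most 0.500 and 2.10. Its Lcn2 (2.01 CPM), Trem2 (0.799), and Gpnmb (2.37) lay within the range of the other CAST/EiJ mice. Over the whole mesothelial list, 0 of 7 markers were higher in PWK/PhJ and 3 in CAST/EiJ, and 1 without replicate 3. The collagen counts of 17 and 2 stood also without this mouse.

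**Figure D3:**
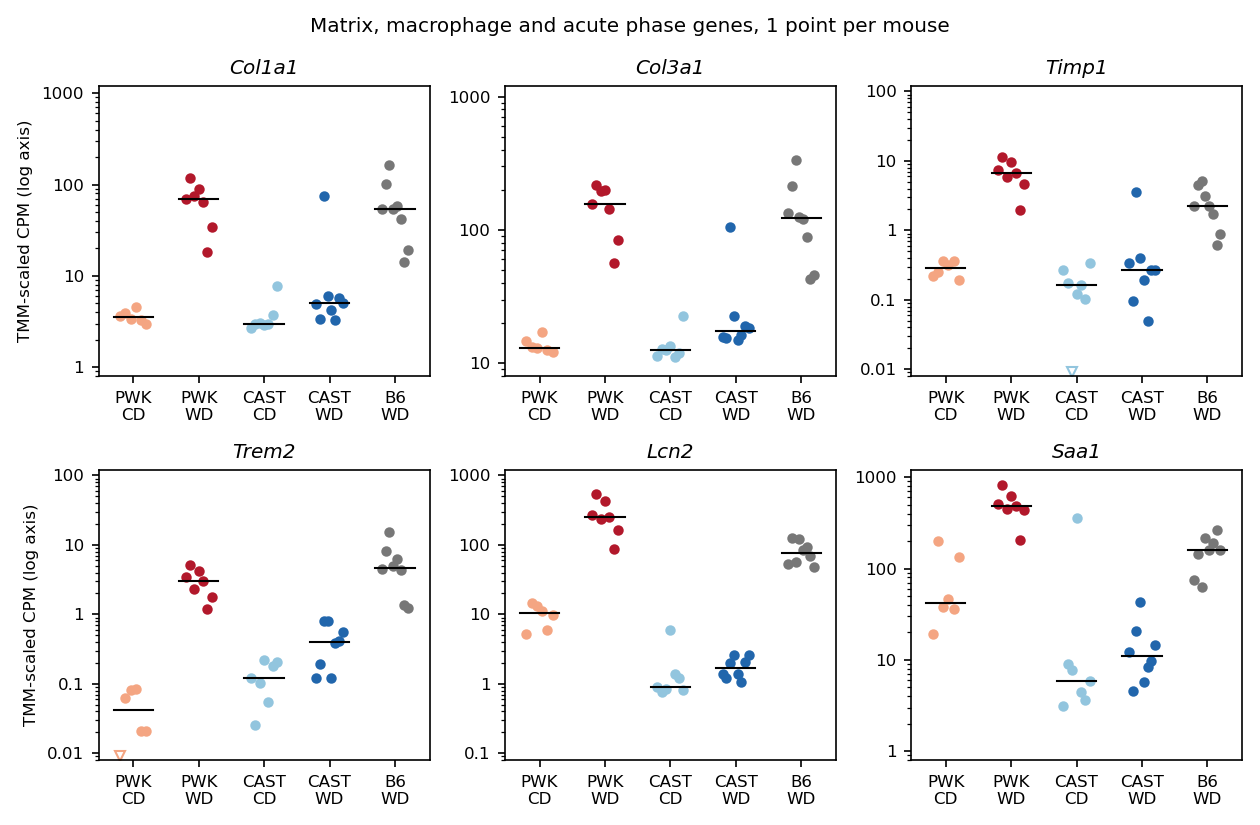
TMM-scaled CPM on log axes of 3 matrix genes (Col1a1, Col3a1, and Timp1), the macrophage gene Trem2, and the acute phase genes Lcn2 and Saa1, with 1 point per mouse, lines at group medians, and open triangles at the lower edge for mice at 0. On WD the PWK/PhJ mice (Lcn2 86.5 to 542) lie above the CAST/EiJ mice (1.08 to 2.63), apart from 1 CAST/EiJ mouse in the matrix genes, and C57BL/6J mice on WD also lie above the CAST/EiJ medians.

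Markers of lipid-associated macrophages, phagocytes that take up lipid in fatty tissue, were all higher in PWK/PhJ. All 18 members tested were called, against 31.8% of all genes, with a median log2 fold change of 1.45. Of these, 15 had no overlap, against 34.3% of all genes. On CD 6 were higher in PWK/PhJ and 0 in CAST/EiJ. Within cohort 1 alone 15 were higher in PWK/PhJ and 0 in CAST/EiJ. Trem2, the lipid-sensing receptor that defines these cells, was at 1.18 to 5.17 CPM (median 2.98) against 0.121 to 0.806 (median 0.405), without overlap. Its log2 fold change was 2.98 (SE 0.58, adjusted p = 6.77e-06), while on CD all mice of both strains lay at or below 0.219 CPM. The difference between diets was 4.48 (adjusted p = 0.0165), which did not pass without CAST/EiJ CD replicates 5, 6, and 7 (0.0746).

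Gpnmb, a glycoprotein of lysosome-rich macrophages, was at 29.5 to 54.9 CPM in PWK/PhJ and 0.405 to 13.0 in CAST/EiJ (log2 fold change 4.02, SE 0.62). Itgax, the integrin CD11c, was at 3.62 to 8.93 against 0.238 to 1.21 CPM (3.57), and Mmp12, a macrophage elastase, at 17.8 to 31.9 against 0.357 to 3.65 (4.38). Each of these 3 genes separated the strains mouse by mouse. Resident Kupffer cell markers were divided, with 5 of 14 higher in PWK/PhJ and 4 in CAST/EiJ. Clec4f, a Kupffer cell lectin, was at 71.9 to 118 and 69.3 to 104 CPM (-0.04, adjusted p = 0.872), and the scavenger receptor Cd163 was lower in PWK/PhJ (-1.76). Among monocyte and dendritic cell markers 7 of 15 were higher in PWK/PhJ and 2 in CAST/EiJ, with Ccr2, the receptor that draws monocytes from blood, at 2.93.

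Chemokines and T cell genes leaned the same way. Of 27 chemokines and cytokines, 18 were higher in PWK/PhJ and 3 in CAST/EiJ (median log2 fold change 2.27), and on CD 12 and 3. Ccl2, the ligand of Ccr2, was at 2.21 to 5.86 CPM against 0.191 to 0.820 (2.91, SE 0.35, adjusted p = 8.3e-12), with separate mice. Tnf was low in all mice, at 0.236 to 0.659 against 0.0245 to 0.227 CPM (2.15, adjusted p = 0.00032). Ccl5, which attracts T cells, had a log2 fold change of 3.61 on WD and 3.23 on CD. The 3 members higher in CAST/EiJ were Cxcl12 (-0.81), Il18 (-0.47), and Csf1 (-0.30).

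Among 18 T and NK cell markers, 17 were higher in PWK/PhJ and 1 in CAST/EiJ (median 2.06), and on CD 13 and 1. Cd8a, the coreceptor of cytotoxic T cells, was at 1.43 to 2.09 against 0.0724 to 0.320 CPM (3.18). Cd3e, a chain of the T cell receptor complex, was at 0.236 to 0.459 against 0.0228 to 0.148 CPM (2.72). Cd4, the coreceptor of helper T cells, was the exception, at 1.54 to 2.77 against 7.06 to 11.2 CPM (-2.02, adjusted p = 1.33e-14). B and plasma cell markers were divided (4 of 13 higher in PWK/PhJ and 2 in CAST/EiJ, or 4 and 6 with sample quality weights). Of 12 neutrophil markers, 6 were higher in CAST/EiJ and 4 in PWK/PhJ (median -1.36), but in cohort 1 alone 0 and 4 (median 0.11), against 22.8% and 24.9% of all genes. The granule genes Camp (-2.73) and Elane (-2.09) were among the former, both at or below 0.626 CPM in every mouse, and the surface antigen gene Ly6g (5.40) among the latter.

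Interferon-stimulated genes were higher in PWK/PhJ on both diets. Interferons switch these antiviral genes on through a protein complex, which includes STAT2 and IRF9, that binds a promoter element rich in GAAA. On WD 21 of 26 were higher in PWK/PhJ and 1 in CAST/EiJ, with a median log2 fold change of 1.60. The mice did not overlap for 21, against 34.3% of all genes. On CD 20 were higher in PWK/PhJ and 0 in CAST/EiJ, and the strain difference differed between diets for 1 member, toward CAST/EiJ. Irf7, the transcription factor that amplifies the response, was at 40.6 to 63.6 CPM (median 52.5) against 3.55 to 8.20 (median 4.62). Its log2 fold change was 3.40 (SE 0.28, adjusted p = 4.41e-19) on WD and 3.28 on CD.

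Of the other members, Ifi44, an interferon-induced protein of the cytoplasm, was at 7.92 to 14.6 CPM against 0.151 to 0.772 (5.12). Oasl2, related to the RNA-sensing 2'-5' oligoadenylate synthetases, was at 17.2 to 27.3 against 1.76 to 4.05 CPM (3.10). The effector genes Rsad2 (viperin, 9.98 to 13.8 against 1.21 to 3.93 CPM, 2.52), Isg15 (a ubiquitin-like modifier, 1.92 to 3.67 against 0.343 to 0.994, 2.46), Ifit1 (a binder of foreign RNA ends, 11.1 to 17.6 against 1.74 to 3.90, 2.42), and Oas3 (1.65 to 3.75 against 0.378 to 1.38, 1.87) also had no overlap. C57BL/6J mice on WD were near PWK/PhJ for Irf7, at 29.4 to 63.0 CPM. Stat2 was the member higher in CAST/EiJ (-0.24).

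The promoters of these genes were searched for GAAA, any 2 bases, and GAAA, the core of the element named above. In the RefSeq table of mouse promoters (GRCm38.p6, C57BL/6J sequence), 12 of the 20 members present had this motif on either strand within 250 bases upstream of the start (60.0%), against 936 of 27025 genes (3.46%). The 150 bases upstream of 4 members, chosen after values and matches were seen, are shown in transcript direction with the motif or its reverse complement in capitals. They let a reader see where the motif lies in genes that differed on both diets, and they are not the PWK/PhJ or CAST/EiJ sequences.
Isg15 (chr4:156200819-156200968, minus strand): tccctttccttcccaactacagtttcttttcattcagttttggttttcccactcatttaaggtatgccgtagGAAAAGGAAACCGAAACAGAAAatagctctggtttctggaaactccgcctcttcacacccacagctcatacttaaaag
Ifit1 (chr19:34640739-34640888, plus strand): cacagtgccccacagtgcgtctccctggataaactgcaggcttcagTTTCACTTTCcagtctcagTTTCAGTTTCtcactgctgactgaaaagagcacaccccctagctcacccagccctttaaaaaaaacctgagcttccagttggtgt
Rsad2 (chr12:26456453-26456602, minus strand): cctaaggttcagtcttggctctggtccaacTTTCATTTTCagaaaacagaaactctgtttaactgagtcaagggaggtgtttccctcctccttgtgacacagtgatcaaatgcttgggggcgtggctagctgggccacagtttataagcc
Oas3 (chr5:120777660-120777809, minus strand): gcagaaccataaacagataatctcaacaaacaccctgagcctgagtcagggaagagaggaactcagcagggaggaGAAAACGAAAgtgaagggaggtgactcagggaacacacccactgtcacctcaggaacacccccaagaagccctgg
In Isg15, 3 overlapping matches began 78, 72, and 66 bases before the start. In Ifit1, 2 matches began 104 and 85 bases before it, and Rsad2 and Oas3 had 1 match each, at 120 and 75. A match is a description of the reference letters, and binding was not measured.

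Genes of MHC class II presentation, with which myeloid cells show antigen to helper T cells, were higher in PWK/PhJ for 9 of 11 and in CAST/EiJ for 1 (median log2 fold change 1.43). On CD the counts were 7 and 1, and the median of the difference between diets was 0.63, where limma-voom called 0 of the 11 (2 at an unadjusted p below 0.05), as did edgeR and DESeq2. H2-Aa, an alpha chain, was at 112 to 165 CPM against 28.9 to 69.4 (1.85). H2-Eb1, a beta chain, was at 1.03 to 2.10 against 15.2 to 43.7 CPM (-3.71), and C57BL/6J mice had 41.8 to 126. Of Toll-like receptor and inflammasome genes, 17 of 24 were higher in PWK/PhJ and 2 in CAST/EiJ, with Tlr7, a sensor of single-stranded RNA, at 2.65, and Cd14, the coreceptor for bacterial lipopolysaccharide, at 2.15.

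Cholesterol synthesis genes were higher in PWK/PhJ, and on CD too. Of 21 enzymes, 16 were higher in PWK/PhJ and 1 in CAST/EiJ on WD (median log2 fold change 1.22). The mice did not overlap for 16, against 34.3% of all genes. On CD the counts were 18 and 0, and the difference was shifted toward CAST/EiJ on WD for 3. Within cohort 1 the WD counts were 16 and 1. Hmgcs1, which makes HMG-CoA, was at 46.1 to 149 CPM (median 91.5) against 18.5 to 27.9 (median 23.5), with a log2 fold change of 1.90 (SE 0.25, adjusted p = 4.75e-10).

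Further along the pathway, Pmvk, the second mevalonate kinase step, was at 12.6 to 17.6 against 1.45 to 2.50 CPM (3.03). Mvd, the decarboxylase that follows, was at 4.18 to 16.4 against 0.833 to 1.74 (2.66), and Idi1, the isomerase, at 4.91 to 13.8 against 0.626 to 1.34 (2.90). These 3 genes showed no overlap between the strains. Fdps, which builds farnesyl diphosphate, was at 3.01 to 6.14 against 0.0485 to 0.320 CPM (4.39). Sqle, the squalene epoxidase, was at 6.67 to 42.2 against 3.93 to 5.69 CPM (2.13), and the sterol demethylase Cyp51 at 21.4 to 63.1 against 5.39 to 9.56 (2.43).

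On CD Idi1 was at 13.4 to 79.2 CPM in PWK/PhJ and 5.29 to 17.5 in CAST/EiJ, so that CAST/EiJ mice on WD had the lowest values of the 4 groups. In the RefSeq promoter table the motif CACCCCAC, a form of the sterol regulatory element, was present on either strand in 2 of 16 enzymes (12.5%), Hmgcs1 and Acat2, against 805 of 27025 genes (2.98%). The Hmgcs1 promoter is shown as the stretch where this motif lies, in capitals, 136 bases before the start (GRCm38.p6, C57BL/6J sequence).
Hmgcs1 (chr13:119690201-119690350, plus strand): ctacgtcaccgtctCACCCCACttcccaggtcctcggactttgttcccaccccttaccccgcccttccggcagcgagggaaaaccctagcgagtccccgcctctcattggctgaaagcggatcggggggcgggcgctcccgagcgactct

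Regulators of SREBP2 and cholesterol uptake were divided (6 of 15 higher in PWK/PhJ and 4 in CAST/EiJ). Srebf2, which encodes SREBP2, differed by 0.39 (adjusted p = 0.000703). Insig1, which retains SREBP in the ER, was higher by 1.06, and Insig2 lower (-0.77).

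Genes of cholesterol efflux and lipoproteins leaned to CAST/EiJ, with 14 of 28 against 6 in PWK/PhJ (median -0.23). Abcg5 and Abcg8, the partners of the transporter that secretes sterols into bile, were at 48.2 to 78.2 against 150 to 199 CPM (-1.50) and 60.2 to 107 against 227 to 302 CPM (-1.74). Their mice did not overlap, and on CD the log2 differences were -1.17 and -1.10. Tm6sf2, which takes part in VLDL lipidation, was lower in PWK/PhJ by -1.46 on WD and -0.33 on CD. Apoa4, an apolipoprotein that is high in fatty livers, was the member with the largest difference toward PWK/PhJ (390 to 1691 against 124 to 196 CPM, 2.49).

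**Figure D4:**
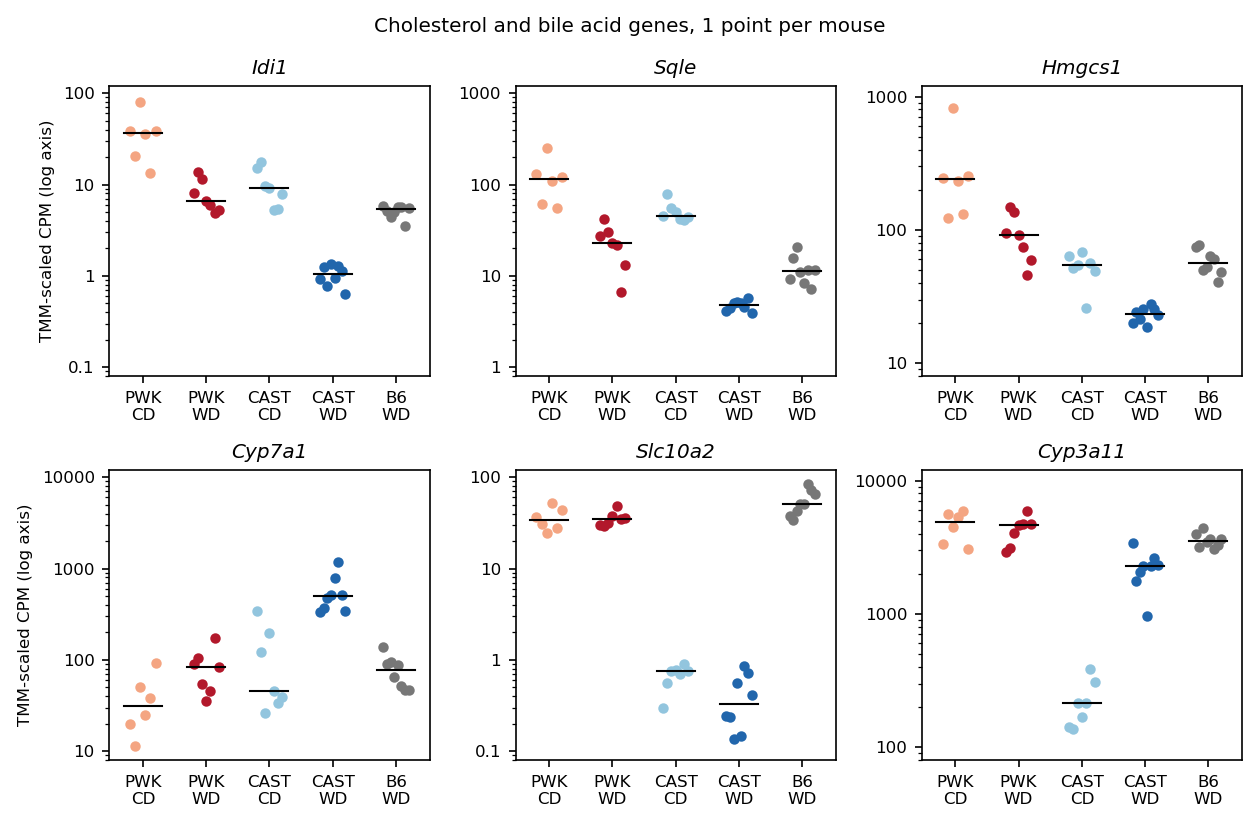
TMM-scaled CPM on log axes of cholesterol synthesis genes (Idi1, Sqle, and Hmgcs1), the bile acid genes Cyp7a1 and Slc10a2, and Cyp3a11, with 1 point per mouse and lines at group medians. By median, CAST/EiJ mice on WD were the lowest group for Idi1 (0.626 to 1.34), Sqle, and Hmgcs1 and the highest for Cyp7a1 (330 to 1166), and Cyp3a11 was lowest in CAST/EiJ on CD.

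Bile acid genes were divided. Cyp7a1, the rate-limiting enzyme of the classic pathway, was at 35.7 to 173 CPM (median 83.3) in PWK/PhJ and 330 to 1166 (median 495) in CAST/EiJ. The strains did not overlap, and the log2 fold change was -2.79 (SE 0.52, adjusted p = 2.37e-06). On CD it was -1.24, where CAST/EiJ replicates 1, 2, and 4 had 122 to 341 CPM and replicates 5, 6, and 7 had 33.9 to 45.7. The difference between the diets (-1.56, adjusted p = 0.133) did not pass with all CD mice and passed without replicates 1, 2, and 4 (-2.63, adjusted p = 0.00599). Cyp27a1 (-0.97) and Cyp7b1 (-1.53), of the alternative pathway, and Cyp39a1 (-3.81), an oxysterol hydroxylase, were also lower in PWK/PhJ, and Klb, the coreceptor for FGF15, which represses Cyp7a1, was too (-1.20).

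Cyp8b1, the hydroxylase that makes cholic acid, overlapped between the strains (-0.27, adjusted p = 0.382). Transporters included the largest difference of the list. Slc10a2, the apical sodium bile acid transporter of ileum and bile ducts, was at 29.2 to 48.9 CPM against 0.137 to 0.858, with a log2 fold change of 6.65 (SE 0.68, adjusted p = 1.68e-14) on WD and 5.73 on CD. C57BL/6J mice had 34.2 to 83.8 CPM. Slco1a4, an uptake carrier, was higher in PWK/PhJ by 2.43 and Abcc3, a basolateral exporter, by 1.86. In all, 6 of 26 members were higher in PWK/PhJ and 11 in CAST/EiJ.

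Cyp3a11, a xenobiotic and bile acid hydroxylase induced through PXR, differed more on CD than on WD. On WD it was at 2893 to 5941 CPM against 966 to 3373 (0.99, adjusted p = 0.000369), and within cohort 1 the difference of 0.53 did not pass (adjusted p = 0.256). On CD it was at 3042 to 5934 CPM against 137 to 389 (4.42), and the difference between diets was -3.42 (adjusted p = 1.33e-11). Sult3a1, an amine sulfotransferase, showed the largest such difference among the genes named. It was at 0.116 to 1.49 CPM in PWK/PhJ and 2319 to 3072 in CAST/EiJ on WD (-12.61), and at 82.7 to 588 against 1624 to 3078 on CD (-3.76), so the difference between diets was -8.85 (SE 0.55, adjusted p = 4.03e-23). C57BL/6J mice on WD had at most 0.310 CPM.

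Fatty acid synthesis genes leaned to PWK/PhJ on both diets. Of 26 lipogenesis and desaturation genes 15 were higher in PWK/PhJ and 2 in CAST/EiJ (median 0.59), and on CD 16 and 2. Pnpla3, a lipid droplet protein whose human ortholog carries a fatty liver risk variant, was at 13.6 to 45.6 CPM (median 28.5) against 0.639 to 1.27 (median 0.889). The log2 fold change was 5.04 (SE 0.77, adjusted p = 2.5e-08), and C57BL/6J mice on WD, at 1.26 to 4.94, were nearer to CAST/EiJ. Gpam, which starts triglyceride assembly, was higher by 2.45. Fasn, fatty acid synthase, was at 306 to 805 against 116 to 223 CPM (1.68), and Scd1, the stearoyl-CoA desaturase, at 15721 to 23890 against 3594 to 8244 (1.94).

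The transcription factor gene Mlxipl, which encodes the glucose sensor ChREBP, was a member with the other sign (-1.26), and Srebf1 did not pass (-0.07). Pparg, a fat storage regulator that is low in lean liver, was at 1.22 to 11.5 CPM (median 3.87) against 0.167 to 0.533 (median 0.387). The log2 fold change was 3.47 (SE 0.58, adjusted p = 2.75e-07) on WD and 0.49 (adjusted p = 0.653) on CD. The difference between diets was 2.98 (adjusted p = 0.0343), but 0.174 and 0.0633 were the adjusted p-values without CAST/EiJ CD replicates 5, 6, and 7 and without 1, 2, and 4. C57BL/6J mice on WD were higher, at 9.23 to 36.0 CPM. Cd36, a fatty acid transporter and PPAR gamma target, was at 110 to 240 against 25.0 to 41.2 CPM (2.41), and Mogat1, a monoacylglycerol acyltransferase, higher by 5.51.

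Cidec, which enlarges lipid droplets, did not pass on WD, at 7.55 to 48.5 against 8.01 to 19.5 CPM (0.76, adjusted p = 0.138). On CD it was lower in PWK/PhJ (-3.23), where CAST/EiJ mice spread from 6.27 to 134 CPM. Hsd17b13, a droplet protein of hepatocytes, was higher in PWK/PhJ by 0.54 (853 to 1074 against 535 to 736 CPM). Of 33 fatty acid oxidation genes, 13 were higher in PWK/PhJ and 4 in CAST/EiJ on WD, against 31.8% and 30.4% of all genes. On CD 9 of these genes were higher in PWK/PhJ and 13 in CAST/EiJ. Ppara, their main regulator, and Cpt1a, the carnitine transferase that admits fatty acids to mitochondria, did not pass on WD (-0.26 and -0.31), although both were lower in PWK/PhJ on CD. Of this list 6 members were shifted toward PWK/PhJ on WD, 0 without CAST/EiJ CD replicates 5, 6, and 7, and 20 without replicates 1, 2, and 4.

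Nuclear genes of the respiratory chain were lower in PWK/PhJ on WD by small amounts. Of 76 subunits of complexes I to IV and the ATP synthase, 45 were higher in CAST/EiJ and 7 in PWK/PhJ, against 30.4% and 31.8% of all genes, with a median log2 fold change of -0.17. On CD the balance was different, with 11 higher in CAST/EiJ and 26 in PWK/PhJ (median 0.07). The difference between diets was negative for 75 of 76 subunits (range -0.52 to 0.14, median -0.28), and 50 of them passed in that direction and 0 in the other, against 10.2% and 8.94% of all genes. Without CAST/EiJ CD replicates 5, 6, and 7 the number was 44, and without replicates 1, 2, and 4 it was 49. Within PWK/PhJ 61 of 76 were lower on WD than on CD (median -0.25) and 0 higher, against 14.5% and 15.1% of all genes. Within CAST/EiJ limma-voom called 0 lower (3 at an unadjusted p below 0.05) and 1 higher (median 0.03), against 9.73% and 9.77% of all genes. On WD within cohort 1 alone, 39 were higher in CAST/EiJ and 3 in PWK/PhJ.

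Complex I, which oxidizes NADH, had 23 of 36 subunits higher in CAST/EiJ and 4 in PWK/PhJ. Ndufc1, an accessory subunit, was at 10.5 to 13.8 CPM against 21.5 to 27.3 (-0.98, adjusted p = 2.07e-23), but it differed on CD too (-0.84). The core subunit Ndufs1 was at 93.4 to 116.9 against 117.5 to 134 CPM (-0.25, adjusted p = 5.43e-05). Ndufb9, another accessory subunit, differed by -0.58 on WD and -0.25 on CD.

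In complex III, Uqcrc1, a core protein, was at 114 to 144 against 252 to 289 CPM (-1.06), likewise with a large difference on CD (-0.87). Complex IV had 7 of 12 subunits higher in CAST/EiJ and 1 in PWK/PhJ. Cox4i1, a regulatory subunit, was at 128 to 158 against 155 to 185 CPM (-0.22) on WD and did not pass on CD (0.06), with a difference between diets of -0.28 (adjusted p = 0.00619). Cox7a2l, a factor in the assembly of respiratory supercomplexes, was the exception, at 40.4 to 47.6 against 14.3 to 19.9 CPM (1.37) on WD and 1.54 on CD. Atp5o, the stalk subunit of ATP synthase that confers oligomycin sensitivity, was at 84.5 to 114 against 137 to 156 CPM (-0.60, adjusted p = 4.85e-18), with a difference between diets of -0.37 (adjusted p = 0.000238).

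**Figure D5:**
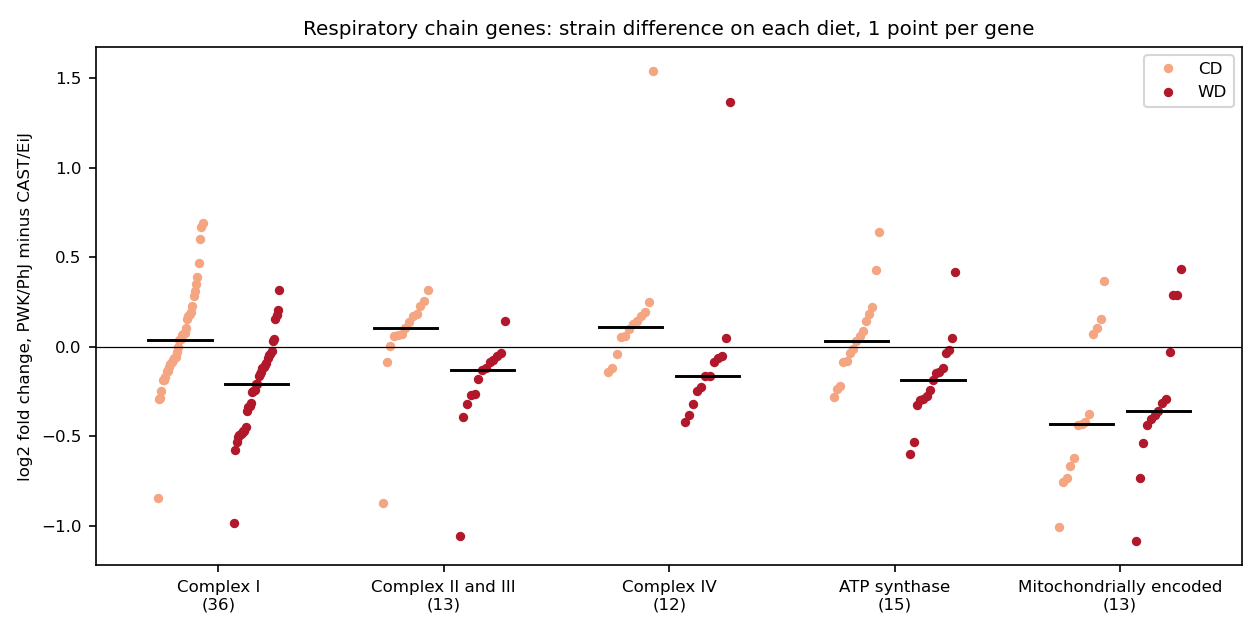
Log2 fold changes of PWK/PhJ against CAST/EiJ for respiratory chain genes by complex on CD (light) and WD (dark), with 1 point per gene, the number of genes in brackets, and lines at medians. The nuclear groups have medians above 0 on CD and below 0 on WD, whereas the 13 mitochondrially encoded genes have a negative median on both diets.

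The mitochondrially encoded genes had another pattern. Of 13, 9 were higher in CAST/EiJ and 3 in PWK/PhJ on WD, and on CD 9 and 1. Their median log2 fold change was -0.36 on WD and -0.43 on CD. mt-Co1, a catalytic subunit of complex IV, was at 12792 to 17032 against 10472 to 13038 CPM (0.29), and mt-Co3 of the same complex at 27.5 to 49.5 against 67.8 to 92.4 CPM (-1.09). mt-Co3 overlaps mt-Atp6 in the annotation, and nuclear copies of mitochondrial DNA can share its reads. Nnt, the proton-driven transhydrogenase that is defective in C57BL/6J, was at 136 to 160 against 78.5 to 98.4 CPM (0.77).

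The acute phase list of 25 genes also held the signalling genes Il1r1, Il6ra, Il6st, and Stat3. On WD 16 of the 25 were higher in PWK/PhJ and 0 in CAST/EiJ (median 0.92), against 31.8% and 30.4% of all genes. On CD the counts were 12 and 4. Beside Lcn2 and Saa1, Orm2, an orosomucoid, was at 21.5 to 132 CPM against 4.43 to 18.0 (2.72). On CD it did not pass (-0.91, adjusted p = 0.24), and the difference between diets was 3.63 (adjusted p = 0.000853). The fibrinogen genes Fga (-0.15), Fgb (-0.14), and Fgg (-0.32) did not pass. The stress response list was divided (9 of 23 higher in PWK/PhJ and 6 in CAST/EiJ). Fgf21, a hormone released by the stressed liver, was at 6.41 to 33.1 against 0.655 to 3.49 CPM (3.64), Asns, asparagine synthetase, at 8.79 to 20.8 against 0.262 to 1.55 (4.57), and Gdf15 at 8.82 to 22.7 against 0.752 to 4.02 (2.77). For Gdf15 the difference of 1.85 within cohort 1 did not pass (adjusted p = 0.0911). Among 24 ER chaperone and unfolded protein response genes, 0 were higher in PWK/PhJ and 9 in CAST/EiJ, against 31.8% and 30.4% of all genes. On CD the counts were 3 and 8.

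Several hepatocyte functions were higher in CAST/EiJ. Of 29 genes of amino acid, urea, and methionine metabolism 16 were higher in CAST/EiJ and 3 in PWK/PhJ (median -0.45), and on CD 19 and 5. Oat, ornithine aminotransferase, was at 151 to 214 CPM against 596 to 1025 (-2.22), and Bhmt, which remethylates homocysteine, at 162 to 243 against 697 to 1430 (-2.12). Pck1, the control point of gluconeogenesis, was at 204 to 499 against 1568 to 2961 CPM (-2.66, adjusted p = 7.69e-14), and none of these mice overlapped. Pericentral markers were higher in CAST/EiJ for 9 of 13 and in PWK/PhJ for 0, against 30.4% and 31.8% of all genes. Periportal markers were for 5 and 2 of 12, and general hepatocyte markers for 9 and 2 of 16. On CD these counts were 5 and 2 (pericentral), 5 and 2 (periportal), and 5 and 4 (hepatocyte).

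Complement genes were divided. In all, 13 of 28 were higher in CAST/EiJ and 7 in PWK/PhJ. Components that hepatocytes secrete led the former, with C4a (14.5 to 21.7 against 335 to 508 CPM, -4.58), C8b (52.5 to 165 against 858 to 1337, -3.49), and C6 (260 to 345 against 1628 to 3062, -2.93). C4a has the near-identical neighbour C4b, which did not pass (-0.02). The receptors C3ar1 (2.25) and C5ar1 (1.89), which myeloid cells carry, were higher in PWK/PhJ.

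Cell cycle and ductular genes leaned to PWK/PhJ. Of 18 cell cycle genes, 14 were higher in PWK/PhJ and 0 in CAST/EiJ (median 1.58), against 5 and 2 on CD. Mki67, a marker of dividing cells, was at 1.57 to 6.00 against 0.436 to 2.76 CPM (2.03, adjusted p = 4.93e-05), with overlap between the strains. Within cohort 1, 9 were higher in PWK/PhJ and 1 in CAST/EiJ. Of 16 ductular and keratin markers 11 were higher in PWK/PhJ and 1 in CAST/EiJ. Krt8, a keratin of hepatocytes and ducts, was at 233 to 396 against 114 to 142 CPM (1.22) and did not pass on CD (0.27), while Tff3, a mucosal peptide, was higher by 7.44 on WD and 6.28 on CD.

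Some genes were read in 1 strain alone. With a mean of at least 100 counts in 1 strain on WD and at most 3 counts in every mouse of the other, 39 genes were read in PWK/PhJ only and 18 in CAST/EiJ only. Of the former, 20 were protein coding and 10 pseudogenes, and of the latter 13 and 3. Sptlc3, a subunit of the enzyme that starts sphingolipid synthesis, had 1749 ± 627 counts (SD, n = 7) in PWK/PhJ and 0 in every CAST/EiJ mouse, which allows up to 3 counts per mouse, and 3.25 counts on average in C57BL/6J. On WD the PWK/PhJ mice had 614 to 2449 counts of Sptlc3, and on CD 2 to 53. Mtnr1a, a melatonin receptor, had 552 ± 81.5 counts against 0, with 314 in C57BL/6J. In the other direction Gsdma3, of the pore-forming gasdermins, had 3790 ± 684 counts (n = 8) in CAST/EiJ and at most 1 in PWK/PhJ, Ugt1a10, a glucuronosyltransferase that shares exons with its neighbours, 3214 ± 380 and at most 2, and Clec2h, a lectin, 1220 ± 375 and at most 1. In C57BL/6J on WD, the genome used for mapping, 11 of the 39 and 3 of the 18 also averaged at least 100 counts, and 13 and 8 were at or below 3 counts in every mouse. Whether such a gene is not transcribed, is deleted, or only fails to map in a strain cannot be told apart from these counts.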

How the data were processed

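Liver RNA of male mice was sequenced on a BGISEQ-500 after library preparation with a SMARTER kit, and reads were mapped to the C57BL/6J genome and counted with STAR (2.7.1a in the submitters' processing notes). The deposited values are unnormalized counts of reads per gene and mouse, with 4 summary lines for unassigned reads, which were taken out and used for shares of reads. The annotation release and strand setting are not given in the sources used here. No pair of samples of a group was closer than 21.4 times the sampling variance (chi-square per degree of freedom over genes), so each mouse was kept as a replicate.

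The counts were filtered with filterByExpr of edgeR 4.0.16 (minimum count 10) and fitted with limma 3.58.1 in R 4.3.3. TMM factors were 0.956 to 1.216 in the 15 mice, and voom was fitted once to all 93 mice with a mean for each strain and diet. Contrasts used limma's moderated test with Benjamini-Hochberg adjustment over 19110 genes and a threshold of 0.05. Shares of reads were compared with exact permutation tests. CPM is not divided by gene length, so levels were not compared between genes. The depth of 40797718 to 46606121 gene reads per mouse makes 1 CPM about 41 to 47 reads before TMM scaling. The TMM factor of each mouse changes that number. The allowance of up to 3 counts for a gene without counts covers counting error only. SE values came from the limma fit, and SD values give the spread among mice.

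Groups, cohorts, and RNA integrity number (RIN, 7.6 to 9.2 in the 15 mice) came from the labels. The members and the 51 gene lists were chosen with earlier results of these data known. Named genes were the 8 largest differences in each direction among abundant coding genes without overlap, the 4 largest of each list, the 8 largest differences between diets in each direction, a list of liver genes always shown, and the 3 genes with the most reads in 1 strain alone in each direction, and not every candidate is described. A few others are given as exceptions within their list and were chosen after their values were seen. Some genes that the rule names are not reported here.

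Alternatives were DESeq2 1.42.0 (Wald test), the quasi-likelihood test of edgeR, upper-quartile factors, other filters, RIN as a covariate, sample quality weights, smaller fits, cohort 1 alone, and each mouse left out in turn. Promoter sequences came from RefSeq (GRCm38.p6).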

Additional observations from a re-analysis of the deposited data

Results flagged for a closer look

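Single mice lay far from the rest of their group in 16 of 162 groups of values tested. The rule was a Dixon ratio on CPM or percentages, with a limit that about 1 in 20 groups of normal values would pass. Several genes shared a far mouse and normality was not checked, so the number expected by chance is not known. In CAST/EiJ on WD, replicate 3 was the far mouse for Col1a1 (74.8 CPM), Col1a2 (61.8), Col3a1 (105), Timp1 (3.54), and Serpina7 (5.04). The others in this group were Saa1 in replicate 4 (42.8), H2-Eb1 in replicate 5 (43.7), Fgf21 in replicate 8 (3.49), Oas3 in replicate 1 (1.38), and Cyp39a1 in replicate 6 (44.8). In PWK/PhJ on WD, replicate 6 was far for Mup20 (2038 CPM), Selenbp2 (122), and Lrtm1 (9.05), replicate 7 for Cyp8b1 (196), and replicate 5 for Slc10a2 (48.9). PWK/PhJ replicate 2 had 5.06% of reads outside genes, the highest share of its group.

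For 25 of the 76 named genes the strain difference on WD differed from that on CD (limma-voom, adjusted p below 0.05). Over all genes tested the share was 19.2%. Some genes were named because they had passed this same test, so the count is not a result about the named genes. The difference was shifted toward PWK/PhJ on WD for Trem2 (4.48), Lcn2 (4.28), Cidec (3.99), Orm2 (3.63), Postn (3.59), Timp1 (3.25), Col1a1 (3.10), Col1a2 (3.01), Pparg (2.98), Cyp39a1 (2.74), Col3a1 (2.60), Gdf15 (2.49), Serpina7 (1.97), Mup6 (1.67), Ppara (1.01), and Cpt1a (0.98). It was shifted toward CAST/EiJ for Sult3a1 (-8.85), Lrtm1 (-3.65), Cyp3a11 (-3.42), Gstp3 (-1.56), Gsn (-1.35), mt-Co3 (-0.66), Serpina1a (-0.62), Atp5o (-0.37), and Cox4i1 (-0.28). Without CAST/EiJ CD replicates 5, 6, and 7, genes no longer passed at adjusted p-values of 0.126 for Timp1, 0.0746 for Trem2, 0.174 for Pparg, 0.648 for Gdf15, 0.077 for Cpt1a, 0.166 for Ppara, 0.243 for Serpina1a, and 0.0591 for Cyp39a1. Without replicates 1, 2, and 4 the values that no longer passed were 0.0553 for Lcn2, 0.0747 for Timp1, 0.0633 for Pparg, 0.112 for Serpina7, and 0.0599 for Gsn.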

How the results depend on the processing

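No named gene called in the analysis changed sign under an alternative. List balances turned for neutrophil markers in cohort 1 (from 4 higher in PWK/PhJ and 6 in CAST/EiJ to 4 and 0), for B and plasma cell markers with quality weights or on the 15 WD mice alone (from 4 and 2 to 4 and 6), and for stellate markers without CAST/EiJ WD replicate 2 (from 5 and 3 to 3 and 4). The balance of 16 liver endothelial markers, not described above, also turned in cohort 1 (from 4 and 5 to 4 and 1). Of 1969 values of 76 named genes under alternatives, 1958 stayed on the same side of the threshold, 5 no longer passed, and 6 newly passed. The 8 genes concerned were Cidec, Cpt1a, Cyp3a11, Cyp8b1, Gdf15, Mup20, Scd1, and mt-Co1. Many of the 76 genes were named because they passed with large differences in these data. Their values under alternatives therefore do not measure how stable the calls are over all genes. Of 2672 list counts, 2540 stayed within 1.5 times the value given. Leaving out each mouse gave 11440 to 11785 DEGs on WD, with 5890 to 6047 higher in PWK/PhJ and 5545 to 5766 higher in CAST/EiJ. With every gene with any count tested, 22345 were called, 15326 of them higher in CAST/EiJ, and the cause was not tested. The number of genes whose strain difference differed between diets was 1957 without CAST/EiJ CD replicates 5, 6, and 7 (958 toward PWK/PhJ and 999 toward CAST/EiJ), and 2578 toward PWK/PhJ without replicates 1, 2, and 4. These sets were chosen after seeing the data. With at least 10 counts in each of the 15 mice, 9 chemokines were higher in PWK/PhJ, since fewer were tested. In cohort 1 alone the differences of -5.734 (unmapped), -1.707 (multimapping), and 1.32 percentage points (ambiguous) had an exact adjusted p of 0.167, as 3 against 3 mice cannot pass. Leaving out single mice, the share outside genes differed by -0.3423 to -0.1763 points (exact adjusted p = 0.0291 without PWK/PhJ replicate 2) and the mitochondrial share by -0.7699 to -0.3532 (0.0142 without PWK/PhJ replicate 5). Genes read in 1 strain alone numbered 107 in PWK/PhJ and 53 in CAST/EiJ at a mean of 30 counts, and 12 in PWK/PhJ at 300. No paired analysis was possible because the labels give no replicate numbers that join mice of different groups. Only cohort 1 held both strains on WD, so strain and cohort cannot be told apart in the other mice. Genes below about 1 CPM rest on few reads.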

Other observations

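Genes of vesicle coats showed a strain difference that depended on the diet. Of 26 genes of the COPII and COPI coats, which carry proteins between the ER and the Golgi, 20 were higher in CAST/EiJ and 1 in PWK/PhJ on CD (median log2 fold change -0.36), and 13 and 3 on WD (median -0.13). Over all genes tested, 28.8% were higher in CAST/EiJ and 29.6% in PWK/PhJ on CD, and 30.4% and 31.8% on WD. The difference between diets passed toward PWK/PhJ for 13 and toward CAST/EiJ for 0, against 8.94% and 10.2% of all genes. Without CAST/EiJ CD replicates 5, 6, and 7 it passed toward PWK/PhJ for 9, against 5.01% of all genes. Without replicates 1, 2, and 4 it did so for 13, against 13.5%. Lman1, a cargo receptor for clotting factors, was lower in PWK/PhJ on WD (-0.58), as was Sec16b (-0.68), an organizer of ER exit sites.

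Of 19 clock genes, 8 were higher in CAST/EiJ and 1 in PWK/PhJ on WD, against 30.4% and 31.8% of all genes, and 9 and 3 on CD. In cohort 1 alone 2 and 1 were, against 22.8% and 24.9%. Per1, a negative arm gene, was at 5.87 to 9.85 CPM in PWK/PhJ and 10.8 to 43.1 in CAST/EiJ on WD (-1.33). In CAST/EiJ on CD it was at 22.4 to 29.7 CPM in replicates 1, 2, and 4 and 90.7 to 99.3 in replicates 5, 6, and 7. By the paper's methods, mice were fasted in the morning and killed within a window of the same afternoon. The hour at which each mouse was killed is not in the labels used here.

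Of 24 sex-biased genes and genes of the growth hormone axis, 12 were higher in CAST/EiJ and 3 in PWK/PhJ. Sult2a1, a hydroxysteroid sulfotransferase that is high in female liver, was at 6.03 to 73.5 CPM in these PWK/PhJ males and at most 0.101 in CAST/EiJ males. Cish (-1.57) and Socs2 (-1.32), which growth hormone induces through STAT5, were lower in PWK/PhJ. Of 25 NRF2 targets and glutathione transferases, 9 were higher in PWK/PhJ and 12 in CAST/EiJ. Gstt1 was at 106 to 138 against 2.70 to 4.34 CPM (5.22) and Gstm2 at 3.65 to 8.86 against 101 to 168 (-4.55). Of 6 red blood cell genes, 4 were higher in PWK/PhJ and 1 in CAST/EiJ, with Hba-a1, an alpha globin, at 18.4 to 61.8 against 3.00 to 14.6 CPM (2.50).

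Lrtm1, a membrane protein gene within Cacna2d3, was at 1.69 to 9.05 CPM in PWK/PhJ and 14.0 to 72.0 in CAST/EiJ on WD (-3.54) and did not pass on CD (0.11), so the difference between diets was -3.65 (adjusted p = 2.92e-05).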
